A study of Mus musculus with 24 samples.

Results

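The 10 genes described here encode the MiT/TFE transcription factors (Tfeb, Tfe3, Mitf and Tfec), the kinase mTOR and its partner Raptor (Mtor and Rptor), the Rag GTPases RagC and RagD (Rragc and Rragd), and folliculin with its partner FNIP1 (Flcn and Fnip1). They were taken by gene symbol from a count table of 54532 mouse genes, and all 10 were among the 18065 genes with enough counts to be tested. RNA was measured by RNA-seq in the retinal pigment epithelium (RPE), the cell layer behind the retina that supports photoreceptors and digests their shed outer segments. All animals were wild-type 129S1/SvlmJ mice with the Leu450 form of Rpe65, held in a 12-h cyclic light schedule on standard diet. Eyes were sampled 0, 1, 3, 5, 6, 9, 15 and 16 h after light onset, with 3 mice at each time and 24 libraries in all. The first of these times lies at light onset, the times from 1 to 9 h in the light phase, and 15 and 16 h in the dark phase. The design set out to follow autophagy and lysosomal genes through the day, and there is no treated or mutant group.

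These proteins form a circuit on the lysosome surface. A Rag dimer pairs RagA or RagB with RagC or RagD and brings mTORC1, the complex of mTOR and Raptor, to the lysosome when amino acids are plentiful. Folliculin with FNIP1 switches RagC and RagD to the form in which they present TFEB, TFE3 and MITF to mTORC1, which phosphorylates these factors and holds them in the cytoplasm. Once dephosphorylated they enter the nucleus and switch on lysosomal and autophagy genes, and Rragd, Flcn and the FNIP genes are themselves known targets. In the RPE, Mitf is also the factor of pigment cell identity. Most of this regulation acts on protein phosphorylation and location, which transcript counts do not measure.

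Libraries held 14073440 to 17492470 counts. A pair of libraries lay far from the remaining 22 on the first principal component (38.2% of the variance), 15 h mouse 3 at 199.9 and 6 h mouse 3 at 49.34, with the remainder between -25.06 and -3.458. Results for the 10 genes are therefore given over all 24 libraries and over the 22 without that pair. Of the 7 RPE markers, Rpe65 had 3570 to 6250 CPM (counts scaled to library size, with TMM factors) in the 22 libraries, while Best1 had 2.42 to 5.21 CPM. The 7 summed to 23500 to 34400 CPM, of which Ttr gave 12600 to 19000 CPM. Rod markers were present in every library, none of the 9 was at 0 in all libraries, and their summed level was 284 to 819 CPM at 9 h and 2170 to 3530 CPM at 0 h. The 12 markers of macrophages and mast cells summed to 2540 to 2980 CPM at 9 h and 2130 to 2290 CPM at 0 h, with none at 0 in all libraries. Markers of choroid endothelium summed to 589 to 973 CPM at 9 h and 397 to 651 CPM at 0 h. Fibroblast and mural cell markers summed to 1860 to 2370 CPM at 9 h and 1970 to 2170 CPM at 0 h. Melanocyte and Schwann cell markers summed to 991 to 1410 CPM at 9 h and 924 to 1490 CPM at 0 h. The libraries thus held RNA of cells other than the RPE. The cell type behind the values of the 10 genes was not tested. The clock genes Arntl (6.85 ± 1.43 CPM at 9 h, 28.5 ± 3.39 CPM at 0 h) and Dbp (390.0 ± 45.8 CPM at 9 h, 164 ± 51.6 CPM at 0 h) differed in opposite directions (SD, n = 3 each). In bulk tissue, fewer cells of a type and less RNA per cell cannot be told apart.

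All 10 transcripts were detected in every library, at very different levels. Per kilobase of gene length, and averaged over the 24 libraries, the highest level was that of Rragd with 48.4 CPM per kilobase. Flcn (30.4), Mitf (29.2) and Rragc (28.6) followed on the same scale, and Mtor lay at 14.5. Fnip1 (7.76), Tfeb (6.61), Tfe3 (4.8) and Rptor (3.28) were lower, and Tfec, the family member best known from macrophages, was lowest at 0.17. Mitf made up 66.4% to 75.9% of the summed MiT/TFE level per kilobase, as means of the 8 times over 24 libraries. Over the 22 libraries these means were 69.0% to 75.9%. As the plot of levels by time shows, the time means of Tfe3, Rptor, Rragc, Flcn and Fnip1 differed by at most 1.17-fold over the 22 libraries, whereas those of Mtor differed by 1.53-fold and those of Rragd by 1.47-fold.

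**Figure D1:**
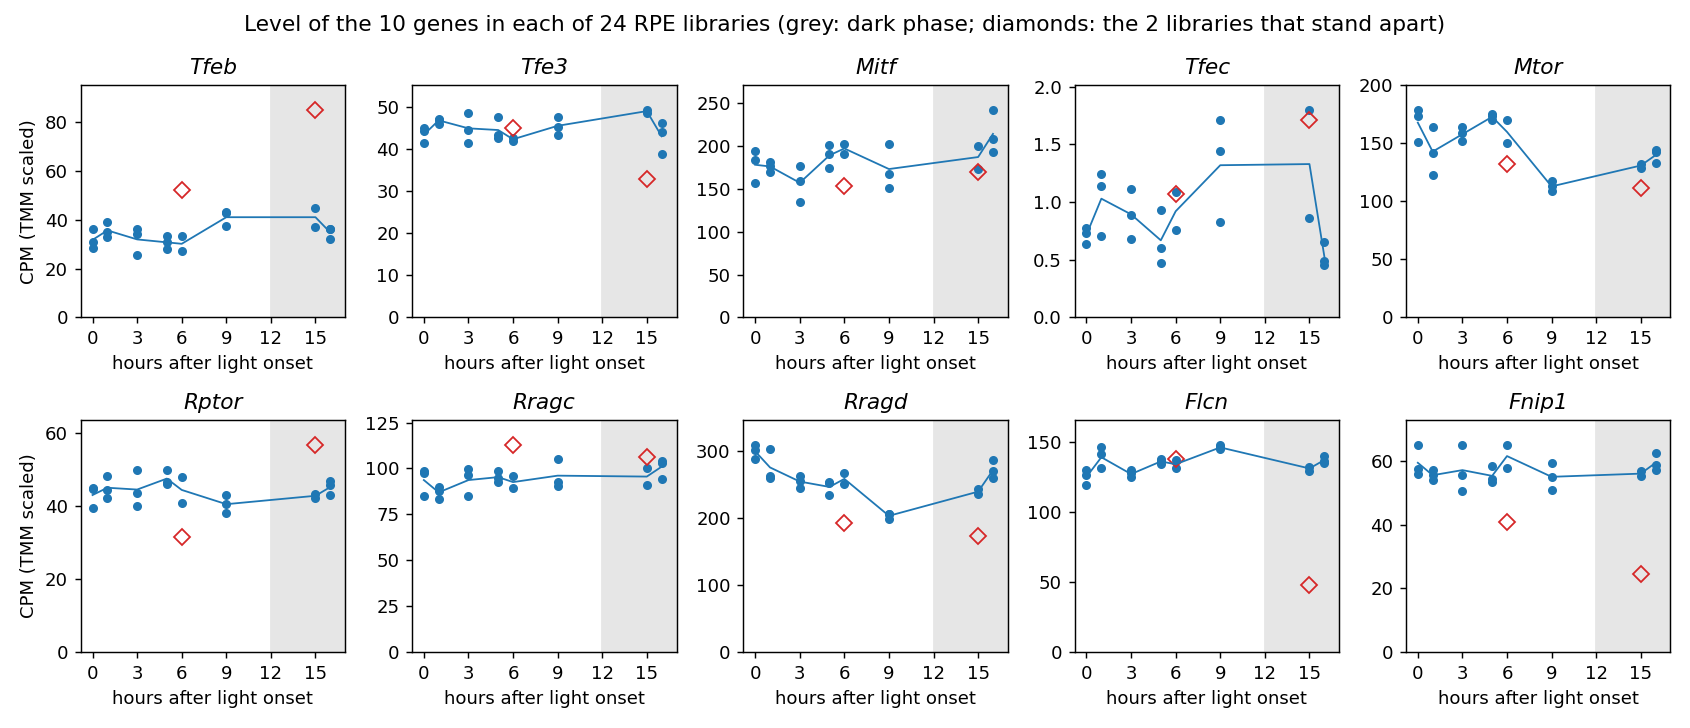
Level of each of the 10 genes (y axis, CPM with TMM scaling) against hours after light onset (x axis), with 1 point per library, a line through the means of the 22 libraries, the dark phase in grey, and diamonds for 6 h mouse 3 and 15 h mouse 3. Mtor and Rragd reached their lowest means at 9 h, 113 and 203 CPM, and in 15 h mouse 3 Tfeb lay at 85.1 CPM and Flcn at 48.2 CPM, outside the other libraries.

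Each gene was compared 4 ways with edgeR's quasi-likelihood test, with Benjamini-Hochberg adjustment over the whole table, and a gene was called where the adjusted p was below 0.05. Over 24 libraries, Mtor was the 1 gene of the 10 called as varying over the 8 times, against 1.08% of all genes tested. Rragd was the 1 gene of the 10 with a called 24 h component (a cosine and sine of that period), against 1.67% of all genes. Between 9 h and 0 h, Mtor and Rragd were both called lower, 2 of 10 genes, against 0.504% of all genes called lower and 0.747% called in either direction. None of the 10 was called between night (15 and 16 h, 6 libraries) and day (1 to 9 h, 15 libraries) by edgeR, DESeq2 or limma-voom. An unadjusted edgeR p under 0.05 was found for 3 of the 10 and for 3211 of all 18065 genes. Of all genes, 1.39% were called in that comparison. The median log2 fold change at 9 h over 0 h was -0.0014 over the 10 genes and 0.0099 over all genes.

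Over the 22 libraries the shares of all genes called were larger. Mtor and Rragd were then both called over time (2 of 10 genes, 15.6% of all genes) and both called for a 24 h component (2 of 10, 6.12% of all genes). Between 9 h and 0 h, Flcn was called higher (1 of 10, 3.61% of all genes) and Mtor and Rragd were called lower (2 of 10, 4.49% of all genes), which made 3 of 10 in either direction, against 8.1% of all genes. Between night and day none of the 10 was called in edgeR. Of all genes, 2.75% were called higher, 1.89% lower and 4.63% in either direction. An unadjusted edgeR p under 0.05 was found there for 2 of the 10 and for 3241 of all 18388 genes. Without regard to a test, all 3 mice of 9 h lay above all 3 of 0 h for Tfeb, Tfec and Flcn and below them for Mtor and Rragd. Such complete separation was found upward in 12.9% and downward in 13.9% of all genes. A further count was made after the values were seen. All 3 mice of 9 h lay below every other one of the 22 libraries for Mtor and Rragd, as they did for 1.09% of all genes, and above every other one for none of the 10 and for 0.852% of all genes. Over 24 libraries none of the 10 was below every other library at 9 h (0.288% of all genes) and none above (0.354%).

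Mtor (ENSMUSG00000028991, chromosome 4, 148448611 to 148557683, plus strand, GRCm38) encodes the kinase itself. Its level was 113, 109 and 118 CPM in the 3 mice of 9 h, against 151, 174 and 179 CPM in the 3 mice of 0 h. The groups did not overlap, and the log2 fold change at 9 h over 0 h was -0.57 (SE 0.111, edgeR adjusted p = 0.0189) over 24 libraries and -0.57 (SE 0.0815, adjusted p = 0.000101) over 22. Mtor had 142, 123 and 164 CPM at 1 h, 152, 159 and 164 CPM at 3 h, and 175, 174 and 170 CPM at 5 h. It had 170, 150 and 132 CPM at 6 h, 132, 129 and 112 CPM at 15 h, and 144, 133 and 143 CPM at 16 h. The mean was lowest at 9 h, and every mouse of both night times lay below every mouse of 0 h, 3 h and 5 h.

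Ranked by mean over the 22 libraries, the times ran from 9 h (113 ± 4.67 CPM) through 15, 16, 1, 3, 6 and 0 h to 5 h (173 ± 2.84 CPM). Only the steps from 9 to 15 h and from 15 to 16 h exceeded the larger of the neighbours' SDs, with no overlap of mice, and the other 5 steps did not. With 15 h mouse 3, at 112 CPM, the mice of 9 h and 15 h overlapped. The range of the time means was 0.61 on the log2 scale, with an adjusted p of 0.0325 over 24 libraries and 0.000195 over 22. The peak-to-trough difference of its fitted 24 h curve was 0.42 on the log2 scale (SE 0.12) and did not pass over 24 libraries (adjusted p = 0.0848), whereas over 22 it was 0.39 and passed (adjusted p = 0.0477). In the 22 libraries that call ended with the rod marker covariate (0.27, adjusted p = 0.421) and with a replicate block (0.38, adjusted p = 0.0738). The time call over 24 libraries ended when any 1 of 16 libraries was left out (adjusted p 0.061 to 0.121). These were mouse 2 or 3 of 0 h, 1 h mouse 1, 6 h mouse 2 and every mouse of 3, 5, 9 and 16 h. The 9 h call ended without mouse 2 or 3 of 0 h or any mouse of 9 h (adjusted p 0.0944 to 0.125). With a rod marker level as covariate the 9 h fold change was -0.66 over 24 libraries (adjusted p = 0.147) and -0.59 over 22 (adjusted p = 0.0131). Rod marker sums did not overlap between 9 h (284 to 819 CPM) and 0 h (2170 to 3530 CPM). Fits of 9 h against 0 h with this covariate, here and for the genes below, therefore cannot tell time from rod RNA.

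Rptor (ENSMUSG00000025583, chromosome 11, 119602905 to 119899576, plus strand) encodes Raptor, the subunit that binds the substrates of mTORC1. It had 40.5, 38.1 and 42.9 CPM at 9 h and 44.8, 39.5 and 44.7 CPM at 0 h, so the groups overlapped. The log2 fold change was -0.09 (SE 0.138, edgeR adjusted p = 0.945) over 24 libraries and -0.08 (adjusted p = 0.609) over 22. Over the 22 libraries its time means spanned 40.5 CPM at 9 h to 47.5 CPM at 5 h, and no test called it. An antisense gene, Rptoros, shares 0.624% of its exonic bases, and since the counts ignore strand those reads cannot be told apart. Per kilobase, the ratio of Mtor to Rptor was 3.73 ± 0.0668 at 9 h and 5.24 ± 0.695 at 0 h (SD, n = 3 each), with no overlap of mice.

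Rragd (ENSMUSG00000028278, chromosome 4, 32983037 to 33022180, plus strand) encodes RagD. The gene had 206, 199 and 205 CPM at 9 h, against 309, 301 and 287 CPM at 0 h. These groups lay far apart relative to their spread, and the log2 fold change was -0.56 (SE 0.123, edgeR adjusted p = 0.0409) over 24 libraries and -0.55 (SE 0.0651, adjusted p = 6.86e-06) over 22. Between them, Rragd had 260, 263 and 303 CPM at 1 h, 262, 245 and 255 CPM at 3 h, 252, 253 and 234 CPM at 5 h, and 250, 266 and 192 CPM at 6 h. At night it had 243, 236 and 173 CPM at 15 h and 269, 260 and 286 CPM at 16 h. Its mean was highest at light onset and lowest late in the light phase, and at 16 h all 3 mice were again above those of 9 h. The lowest values at 6 h and 15 h are those of the 2 libraries that stand apart.

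Ranked by mean over the 22 libraries, Rragd ran from 9 h (203 ± 3.5 CPM) through 15, 5, 3, 6, 16 and 1 h to 0 h (299 ± 11 CPM). The step from 9 to 15 h exceeded the larger SD with no overlap of mice, the step from 6 to 16 h exceeded it with overlap, and the other 5 did not. The fitted 24 h curve of Rragd spanned 0.54 on the log2 scale between trough and peak (SE 0.0744), and its peak fell at 22.1 h (SE 0.75 h), past the last sampled time (edgeR adjusted p = 0.0208). Over the 22 libraries it spanned 0.49, with a peak at 21.7 h (adjusted p = 0.000447). The 8 times cover 1 day once, so the fit tests a daily shape and not its recurrence. Leaving out 1 library ended the 24 h call for any mouse of 0 h or 9 h and for 1 h mouse 3 (adjusted p 0.0578 to 0.0751). Without the time 0 h the span was 0.51 (adjusted p = 0.279). The 9 h call over 24 libraries was narrow, since it held in 3 of 24 fits that left out 1 library, those without 6 h mouse 3, 15 h mouse 2 or 15 h mouse 3. In the other 21 the adjusted p was 0.0516 to 0.219. The range of Rragd over the 8 times was 0.56 on the log2 scale with an adjusted p of 0.123 over 24 libraries, and 0.55 with 0.000156 over 22. With the rod marker covariate the 24 h component was 0.58 over 24 libraries (adjusted p = 0.042) and 0.43 over 22 (adjusted p = 0.00808). The same covariate gave a 9 h fold change of -0.70 over 24 libraries (adjusted p = 0.171) and -0.55 over 22 (adjusted p = 0.00386).

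Rragc (ENSMUSG00000028646, chromosome 4, 123917446 to 123936997, plus strand) encodes RagC, the alternative partner in the Rag dimer. It had 92.4, 90.7 and 105 CPM at 9 h and 98.7, 97.5 and 85 CPM at 0 h, which overlapped, with a log2 fold change of 0.04 (SE 0.104, edgeR adjusted p = 0.973) over 24 libraries and 0.04 (adjusted p = 0.791) over 22. Its time means lay between 87 CPM at 1 h and 101 CPM at 16 h. The gene 4930535I16Rik, on the opposite strand, shares 7.9% of its exonic bases, so its counts are less certain. Within each library the ratio of Rragd to Rragc per kilobase was 1.44, 1.42 and 1.26 at 9 h and 2.02, 1.99 and 2.18 at 0 h. Every mouse of 9 h lay below every mouse of 0 h on this ratio. Its mean was 2.04 at 1 h, 1.76 at 3 h, 1.67 at 5 h, 1.62 at 15 h (2 mice) and 1.75 at 16 h. At 6 h the 2 libraries left had a mean of 1.8. The libraries that stand apart had the lowest ratios of all, 1.1 in 6 h mouse 3 and 1.05 in 15 h mouse 3. RagD transcript was thus more abundant per kilobase than RagC transcript in all 24 libraries.

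**Figure D2:**
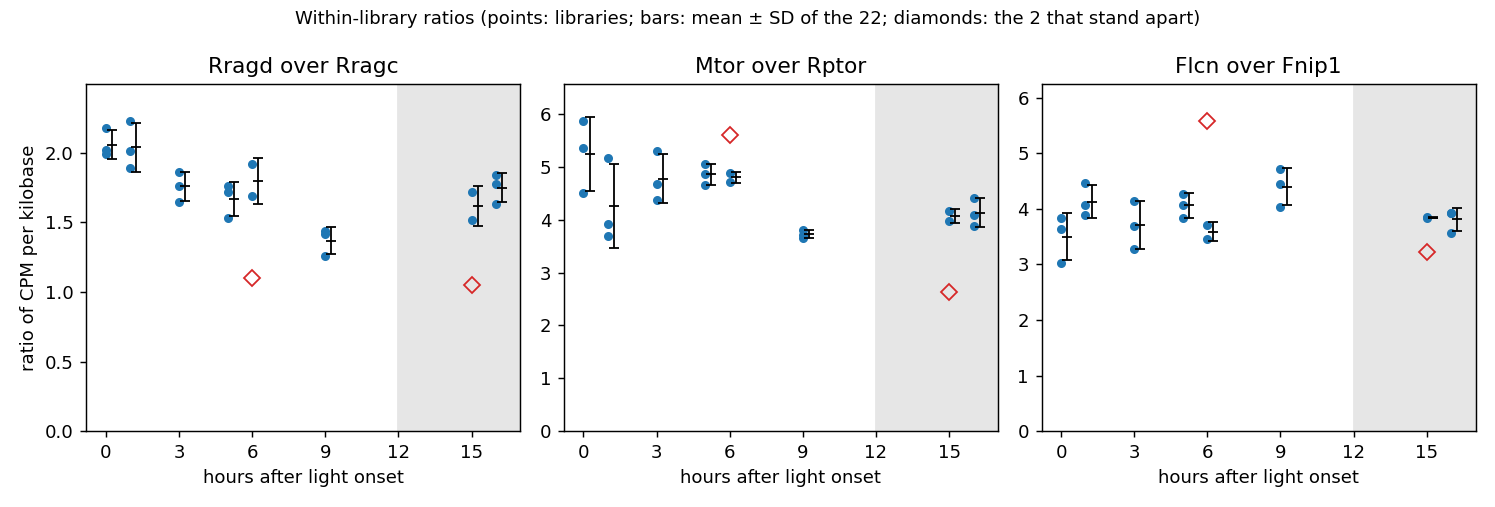
Ratios of CPM per kilobase within each library (y axes) against hours after light onset (x axis) for Rragd over Rragc, Mtor over Rptor and Flcn over Fnip1, with points for libraries, bars for mean ± SD of the 22 libraries and diamonds for the 2 that stand apart. The Rragd over Rragc ratio was 1.37 ± 0.1 at 9 h and 2.06 ± 0.101 at 0 h, and the Mtor over Rptor ratio 3.73 at 9 h and 5.24 at 0 h.

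The sequences before the transcription starts of Mtor and Rragd, the pair that was lower at 9 h, are shown beside those of Rragc and Fnip1, where the E-box CACGTG bound by MiT/TFE factors was found. They are RefSeq sequences of build GRCm38.p6, 250 bases up to the base before the start, all on the plus strand, with the E-box in capitals. The windows are chr4:148448332-148448581 for Mtor, chr4:32982748-32982997 for Rragd, chr4:123917183-123917432 for Rragc and chr11:54437929-54438178 for Fnip1.
Mtor: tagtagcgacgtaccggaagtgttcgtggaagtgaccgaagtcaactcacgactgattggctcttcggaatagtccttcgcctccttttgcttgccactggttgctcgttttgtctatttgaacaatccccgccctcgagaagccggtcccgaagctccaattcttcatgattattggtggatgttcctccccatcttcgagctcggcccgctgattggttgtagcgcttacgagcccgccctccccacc
Rragd: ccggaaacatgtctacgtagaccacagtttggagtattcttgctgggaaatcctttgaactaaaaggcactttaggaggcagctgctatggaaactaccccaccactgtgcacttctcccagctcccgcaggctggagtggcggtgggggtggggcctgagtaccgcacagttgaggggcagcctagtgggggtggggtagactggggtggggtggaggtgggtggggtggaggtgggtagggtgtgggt
Rragc: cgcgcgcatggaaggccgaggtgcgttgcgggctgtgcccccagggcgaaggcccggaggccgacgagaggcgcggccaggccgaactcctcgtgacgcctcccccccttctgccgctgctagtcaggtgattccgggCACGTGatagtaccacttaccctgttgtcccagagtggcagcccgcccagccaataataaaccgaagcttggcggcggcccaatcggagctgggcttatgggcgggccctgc
Fnip1: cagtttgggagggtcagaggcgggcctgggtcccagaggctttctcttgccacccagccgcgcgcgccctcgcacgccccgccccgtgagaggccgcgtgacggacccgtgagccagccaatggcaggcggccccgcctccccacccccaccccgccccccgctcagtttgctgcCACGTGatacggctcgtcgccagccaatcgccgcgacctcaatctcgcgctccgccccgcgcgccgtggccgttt
All 10 genes matched the RefSeq set, with 15 windows of 300 bases that reach 50 bases past the RefSeq start, and both strands were searched. For Mtor, Rragd and Flcn the last 30 bases of the window were in no GENCODE vM21 transcript of the gene. The GENCODE starts of Mtor (148448611) and Rragd (32983037) lie past the end of the 250 bases shown. CACGTG was found in 2 of the 15 windows, with its first base 112 bases before the start of Rragc and 75 before that of Fnip1, and in 7.15% of 32851 mouse windows. Both matches are part of TCACGTG read on the opposite strand, a longer form found in 3.77% of all windows. The CLEAR form TCACGTGA (0.974% of all windows) and its 10-letter extension (0.326%) and the M-box TCATGTG (3.77%) were in none of the 15. A match is a description of the letters in these windows, and Mtor and Rragd had none of these motifs there.

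Flcn (ENSMUSG00000032633, chromosome 11, 59791408 to 59810016, minus strand) encodes folliculin, the GTPase activator for RagC and RagD. It had 146, 148 and 145 CPM at 9 h, against 119, 130 and 126 CPM at 0 h. The groups did not overlap. The log2 fold change was 0.22 (SE 0.212, edgeR adjusted p = 0.86) over 24 libraries and 0.23 (SE 0.0566, adjusted p = 0.0135) over 22. In 15 h mouse 3 Flcn had 48.2 CPM, against 132 and 129 CPM in the other 2 mice of that time. No fit that left out 1 library called it, and with the rod marker covariate the value was -0.10 over 24 libraries (adjusted p = 0.891) and 0.26 over 22 (adjusted p = 0.177). Over the 22 libraries the time means of Flcn were lowest at 0 h (125 ± 5.66 CPM) and highest at 9 h (146 ± 1.34 CPM), with 139 CPM at 1 h and 137 CPM at 16 h.

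Fnip1 (ENSMUSG00000035992, chromosome 11, 54438199 to 54518235, plus strand) encodes the partner that holds folliculin in its active complex. It had 51, 54.8 and 59.2 CPM at 9 h and 65, 55.9 and 57.3 CPM at 0 h, which overlapped, with a log2 fold change of -0.11 (SE 0.211, edgeR adjusted p = 0.958) over 24 libraries and -0.11 (adjusted p = 0.472) over 22. No test called it, and its time means over the 22 libraries lay between 55 CPM at 9 h and 61.5 CPM at 6 h. In the libraries that stand apart it had 40.9 CPM (6 h mouse 3) and 24.6 CPM (15 h mouse 3), both below the lowest of the other 22, 50.7 CPM. The ratio of Flcn to Fnip1 per kilobase was 4.4 ± 0.339 at 9 h and 3.5 ± 0.427 at 0 h (SD, n = 3 each).

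Tfeb (ENSMUSG00000023990, chromosome 17, 47737030 to 47792419, plus strand) encodes the factor of lysosome biogenesis that mTORC1 restrains. It had 42.8, 43.1 and 37.5 CPM at 9 h, against 28.5, 30.8 and 36.2 CPM at 0 h, without overlap. The log2 fold change was 0.37 (SE 0.244, edgeR adjusted p = 0.726) over 24 libraries and 0.37 (SE 0.122, adjusted p = 0.0607) over 22, so it did not pass in either. Levels between 1 and 6 h in the 22 libraries were 25.7 to 39.1 CPM. Tfeb had 44.9 and 37.2 CPM at 15 h and 36.2, 36.3 and 32 CPM at 16 h. The 2 libraries that stand apart, 6 h mouse 3 with 52.4 CPM and 15 h mouse 3 with 85.1 CPM, had the highest values of all 24 libraries. None of the 7 steps between neighbouring time means exceeded the larger SD. At night Tfeb averaged 45.3 CPM, against 35.5 CPM by day, over 24 libraries (log2 fold change 0.32, SE 0.142, adjusted p = 0.252). Over 22 these means were 37.9 CPM at night and 34 CPM by day (0.16, SE 0.079, adjusted p = 0.308).

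Tfe3 (ENSMUSG00000000134, chromosome X, 7762560 to 7775202, plus strand), the close relative that acts alongside Tfeb on lysosomal genes, had the smallest range of time means over 24 libraries (0.12 on the log2 scale). It had 47.8, 43.5 and 45.4 CPM at 9 h and 41.4, 45 and 44.3 CPM at 0 h, with a log2 fold change of 0.07 (SE 0.122, edgeR adjusted p = 0.958) over 24 libraries and 0.07 (adjusted p = 0.634) over 22. Its 22 libraries lay between 38.9 and 49.4 CPM, and 15 h mouse 3 had 33 CPM. In the ranking over 22 libraries only the last step, from 46.9 CPM at 1 h to 49.1 CPM at 15 h, exceeded the larger SD.

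Mitf (ENSMUSG00000035158, chromosome 6, 97807052 to 98021349, plus strand), the factor of RPE and melanocyte identity, had 151, 167 and 202 CPM at 9 h and 194, 183 and 157 CPM at 0 h. These groups overlapped (log2 fold change -0.04, SE 0.136, edgeR adjusted p = 0.98 over 24 libraries, and -0.03, adjusted p = 0.884 over 22). Its mean was lowest at 3 h (157 ± 20.6 CPM) and highest at 16 h (214 ± 25.4 CPM), where the mice had 193, 208 and 242 CPM. No step between neighbouring means exceeded the larger SD. At night Mitf averaged 197 CPM and by day 175 CPM (log2 fold change 0.17, SE 0.0798, adjusted p = 0.275). Over 22 libraries the log2 fold change was 0.16 (SE 0.0695, adjusted p = 0.213).

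Tfec (ENSMUSG00000029553, chromosome 6, 16833373 to 16898441, minus strand) was at the limit of measurement, with 0.457 to 1.8 CPM in the 24 libraries. It had 1.44, 0.829 and 1.71 CPM at 9 h and 0.779, 0.735 and 0.639 CPM at 0 h, without overlap. Its log2 fold change was 0.88 (SE 0.385, edgeR adjusted p = 0.456) over 24 libraries and 0.88 (adjusted p = 0.201) over 22. The summed markers of macrophages and mast cells were also higher at 9 h than at 0 h, as given above, and their part in this difference was not tested.

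**Figure D3:**
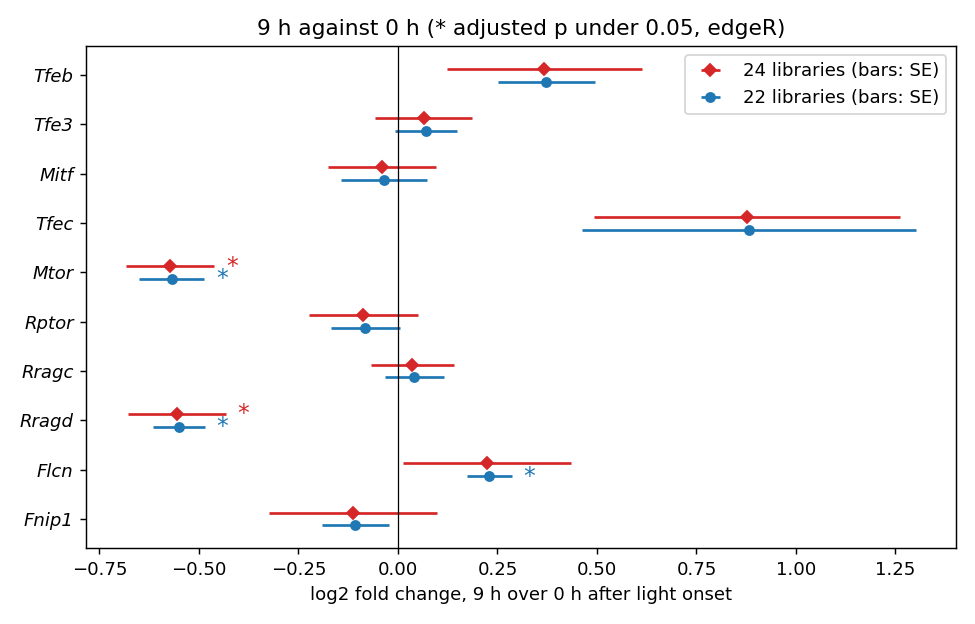
Log2 fold change at 9 h over 0 h after light onset (x axis) for each of the 10 genes (y axis), with bars for the SE, diamonds for the fit over 24 libraries, circles for the fit over 22, and an asterisk where edgeR's adjusted p was under 0.05. Mtor (-0.57) and Rragd (-0.56) were called lower in both fits, and Flcn (0.23) was called higher over 22 libraries.

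Neither Mtor nor Rragd passed between night and day. Mtor averaged 132 CPM at night and 148 CPM by day (log2 fold change -0.15, SE 0.0657, edgeR adjusted p = 0.255), with -0.14 (adjusted p = 0.164) over 22 libraries. Rragd averaged 244 CPM at night and 243 CPM by day (0.01, SE 0.0724, adjusted p = 0.973), with 0.04 (adjusted p = 0.659) over 22 libraries. The day times include both its high values at 1 h and its lowest at 9 h. For all 10 genes, night and day libraries overlapped, and complete separation was seen upward in 0.177% and downward in 0.083% of all genes over 24 libraries, and in 0.626% and 0.21% over 22.

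In the 2 libraries that stand apart, several of these genes lay outside the range of the other 22, in shares near those of all genes. 15 h mouse 3 lay outside the range of the other 22 libraries for 7 of the 10 genes, against 70.8% of all genes tested. On the log2 scale and relative to the median of the 22, it differed by -1.48 for Flcn, -1.20 for Fnip1, -0.57 for Rragd and -0.44 for Tfe3, and by 1.30 for Tfeb and 0.37 for Rptor. 6 h mouse 3 lay outside for 5 of the 10 genes, against 41.2% of all genes. There the differences were 0.60 for Tfeb and 0.26 for Rragc, and -0.48 for Rptor, -0.48 for Fnip1 and -0.42 for Rragd. In these libraries the deviation of a gene also ran with its length, with a Spearman correlation across genes of -0.314 for 15 h mouse 3 and -0.406 for 6 h mouse 3, where the other libraries had -0.192 to 0.207. RPE markers summed to 90400 CPM in 15 h mouse 3 and 40200 CPM in 6 h mouse 3. Red blood cell markers summed to 8770 CPM in 15 h mouse 3, against 844 to 1250 CPM in the other mice of 15 h, and to 3330 CPM in 6 h mouse 3, against 881 to 1150 CPM in the other mice of 6 h. Markers of macrophages and mast cells summed to 3170 CPM in 15 h mouse 3 (2090 to 2280 CPM in the others of that time) and 3520 CPM in 6 h mouse 3 (2110 to 2250 CPM). The part of these differences in the values of the 10 genes was not tested.

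**Figure D4:**
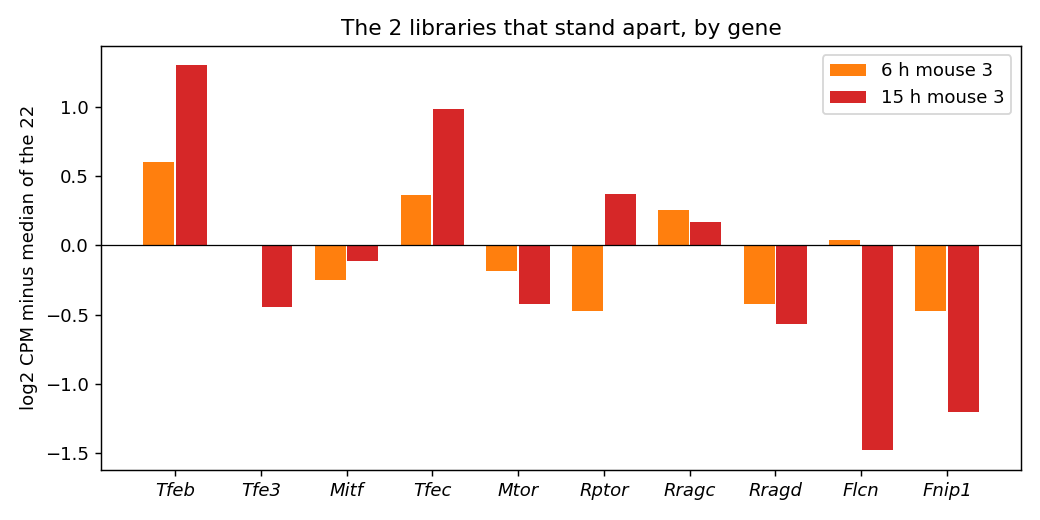
Difference of each gene's log2 CPM from the median of the other 22 libraries (y axis, log2) for the 10 genes (x axis), with a bar for 6 h mouse 3 and a bar for 15 h mouse 3. Flcn (-1.48) and Fnip1 (-1.20) were lowest and Tfeb (1.30) highest in 15 h mouse 3, while Mitf (-0.11) was closest to the others.

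The wider pathway was followed in 8 lists with 111 further genes, of which 110 were tested. Over 24 libraries 1 of the 110 was called over time, 3 for a 24 h component, 1 between night and day and 1 between 9 h and 0 h. As shares of the 110 these were 0.909%, 2.73%, 0.909% and 0.909%, near the 1.08%, 1.67%, 1.39% and 0.747% of all genes. All of these were among the 19 inputs through TSC, Rheb and AMPK, the arms that relay growth factors and energy state to mTORC1. None of the 91 genes of the other lists was called by edgeR or limma-voom. In the 4 comparisons in that order, 14, 15, 17 and 7 of the 91 had an unadjusted edgeR p under 0.05. Of all 18065 genes, 3070, 2913, 3211 and 1738 had such a p. DESeq2 called 7, 2, 0 and 1 of the 91, and its counts over all genes are given in the closing section. Over 22 libraries 22 of 110 genes were called over time, 12 for a 24 h component, 7 between night and day (5 higher, 2 lower) and 17 between 9 h and 0 h (8 higher, 9 lower). As shares of the lists these were 20.0%, 10.9%, 6.36% and 15.5%, beside 15.6%, 6.12%, 4.63% and 8.1% of all genes. The median range over time was 0.27 on the log2 scale over the 110 genes and 0.50 over all genes in those libraries.

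Among the AMPK inputs, Prkab1, the beta-1 regulatory subunit of the energy-sensing kinase, had the clearest daily shape. Prkab1 had 70.6, 70 and 73.5 CPM at 15 h and 78.3, 73.8 and 76.9 CPM at 16 h. By day it had 50.1 to 60.7 CPM at 5 and 6 h and 51.6 to 61.3 CPM at 9 h. Night and day overlapped, since it also had 64.5, 62.9 and 73.5 CPM at 1 h. Its log2 fold change at night over day was 0.31 (SE 0.0548, edgeR adjusted p = 0.00382), and its 24 h component was 0.50 (SE 0.063) with a peak at 18.9 h (adjusted p = 0.000383). Both calls held in all 24 fits that left out 1 library, and the night call ended without the filter on low counts (adjusted p = 0.0541). The range over time of 0.45 was also called (adjusted p = 0.0447), but ended without the filter (0.253) and in 19 of those 24 fits (0.0536 to 0.127), being kept without mouse 2 or 3 of 6 h or any mouse of 15 h. Over all alternatives this time call held in 11 of 33. Over 22 libraries Prkab1 was also lower at 9 h than at 0 h (log2 fold change -0.26, SE 0.0797, adjusted p = 0.0483).

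Ddit4l, a relative of the stress-induced mTORC1 inhibitor Ddit4, had 4.88, 6.1 and 3.83 CPM at 9 h, against 13, 15.4 and 9.99 CPM at 0 h. The groups did not overlap, and the log2 fold change was -1.37 (SE 0.289, edgeR adjusted p = 0.0349) over 24 libraries and -1.37 (adjusted p = 0.000814) over 22. Its 24 h component was 1.44 (SE 0.249), with a peak at 21.3 h (adjusted p = 0.0179). The 9 h call ended without mouse 1 or 2 of 0 h or any mouse of 9 h (0.0571 to 0.174), and with the rod marker covariate it was -0.81 (adjusted p = 0.531). Over all alternatives the 9 h call of Ddit4l held in 26 of 33. The 24 h call ended without 0 h mouse 2 (0.0554) or 9 h mouse 3 (0.0542), without the time 0 h (0.138) and with the rod marker covariate (0.0561). Rhebl1, a relative of the mTORC1 activator Rheb, ran the other way, with 4.75, 4.44 and 4.12 CPM at 9 h and 2.4, 1.8 and 2.9 CPM at 0 h. Its 24 h component was 1.20 (SE 0.245) with a peak at 9.84 h (edgeR adjusted p = 0.0208), and it ended without 0 h mouse 2 (0.0619) or 9 h mouse 1 (0.0574) and without the time 0 h (0.0608). Other genes share 18.0% of the exonic bases of Rhebl1, so its low counts are uncertain.

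**Figure D5:**
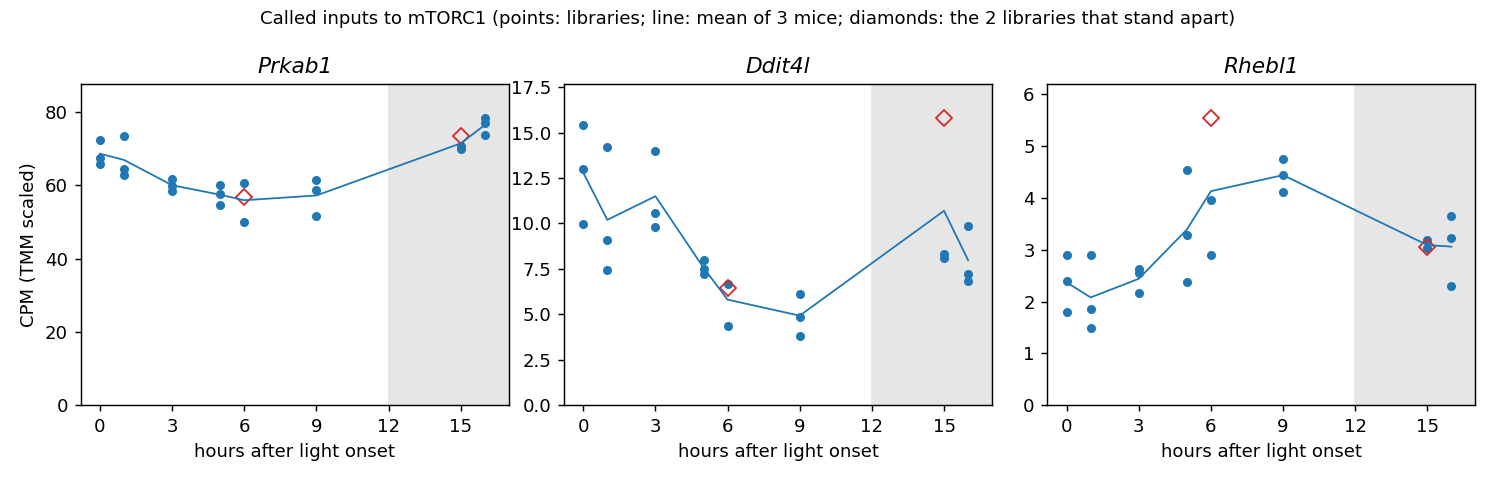
Level of Prkab1, Ddit4l and Rhebl1 (y axes, CPM with TMM scaling) against hours after light onset (x axis), with points for libraries, a line through the means of the 3 mice and diamonds for the 2 libraries that stand apart. Prkab1 was lowest at 6 h (55.9 ± 5.36 CPM) and highest at 16 h (76.4 ± 2.29 CPM), Ddit4l was lowest and Rhebl1 highest at 9 h (4.93 and 4.44 CPM).

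The remaining named genes were called over the 22 libraries and not over 24. Ddit4, a stress-induced inhibitor of mTORC1, was higher at night than by day (log2 fold change 0.45, SE 0.0704, edgeR adjusted p = 0.000364), with 92.6, 99 and 107 CPM at 16 h and 63.4, 69.7 and 74.1 CPM at 9 h. Night and day overlapped, since Ddit4 also had 87.9, 95.5 and 110 CPM at 1 h. Deptor, an inhibitory partner of mTOR, was also higher at night (0.40, SE 0.0916, adjusted p = 0.00943). It was the 1 gene of the 13 mTORC1 subunits and readouts called in any of the 4 comparisons over 22 libraries. That made 7.69% of the list for a 24 h component and for night against day, beside 6.12% and 4.63% of all genes. Castor1, the arginine sensor that acts through GATOR, was higher at 9 h than at 0 h (0.48, SE 0.109, adjusted p = 0.00831), with 22.3, 20.1 and 22.8 CPM at 9 h and 16.1, 16.4 and 14.6 CPM at 0 h. It was lower at night than by day (-0.34, SE 0.0729, adjusted p = 0.00582). Sesn3, a stress-induced sestrin, varied over time (range 0.47, adjusted p = 0.0072).

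Of the 8 other Rag and Ragulator genes, Lamtor1, which anchors Ragulator to the lysosome, was higher at 9 h than at 0 h over 22 libraries. Its log2 fold change was 0.31 (SE 0.076, edgeR adjusted p = 0.0136), with 98.6, 93.2 and 91.6 CPM at 9 h and 75.6, 75.6 and 78.7 CPM at 0 h. The gene Lrrc51 shares 18.7% of its exonic bases on the other strand. Rragb, which encodes RagB, followed a 24 h curve that spanned 0.37 and was highest at 1.36 h (adjusted p = 0.0485). In the folliculin and phosphatase list, Map4k3, a kinase that acts on Tfeb, was lower at 9 h (-0.29, SE 0.0726, adjusted p = 0.0154). Ppp3r1, the regulatory subunit of calcineurin, varied over time (range 0.35, adjusted p = 0.0139) and shares 14.3% of its exonic bases with Wdr92. Both PROTOR genes of mTORC2, Prr5l (0.56, adjusted p = 0.00578) and Prr5 (1.05, adjusted p = 0.0415), varied over time, with the highest mean of Prr5 at 1 h (8.38, 6.46 and 5.63 CPM). Prkaa2 (0.55, adjusted p = 0.00757), Akt1 (0.35, adjusted p = 0.0202) and Prkab2 (0.54, adjusted p = 0.0208), which encode subunits of AMPK and the kinase AKT, varied as well.

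Targets of the factors were followed in 2 lists. Of 29 lysosomal and autophagy genes with CLEAR elements, 0 were called by edgeR over 24 libraries in any comparison, and they are among the 91 genes counted above. Over 22 libraries, 6 were called between 9 h and 0 h, 5 higher and 1 lower (20.7% of the list), beside 8.1% of all genes. In the other comparisons over 22 libraries, 3 of the 29 were called over time (10.3%, beside 15.6% of all genes), 2 for a 24 h component (6.9%, beside 6.12%) and 1 between night and day (3.45%, beside 4.63%). Pip4p1 (Tmem55b), a lysosomal membrane phosphatase, was higher at 9 h (0.33, SE 0.0773, edgeR adjusted p = 0.00984), as was the protective protein cathepsin A gene Ctsa (0.25, SE 0.0585, adjusted p = 0.00992). Genes on the opposite strand share 19.5% of the exonic bases of Pip4p1 and 17.4% of those of Ctsa. Ppargc1a, a coactivator of mitochondrial genes, was lower at 9 h (-0.35, SE 0.0976, adjusted p = 0.0287), with 42.7, 39.9 and 43.7 CPM at 9 h and 56.6, 53 and 51.7 CPM at 0 h. Wipi1, which acts in autophagosome formation, varied over time (0.43, adjusted p = 0.00719), with 164, 154 and 159 CPM at 16 h and 110, 130 and 120 CPM at 0 h.

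Of 11 pigment genes known as Mitf targets, 0 were called by edgeR over 24 libraries, and these too are among the 91. Over 22 libraries 7 were called over time (63.6% of the list, beside 15.6% of all genes) and 4 were called lower at 9 h than at 0 h (36.4%, beside 4.49%). Of the same list, 2 were called for a 24 h component (18.2%, beside 6.12%) and 1 between night and day (9.09%, beside 4.63%). At 9 h over 0 h the list had a median of -0.28 on the log2 scale beside 0.01 for all genes. Rab27a, which tethers melanosomes to their motor, had 319, 292 and 341 CPM at 9 h and 411, 421 and 419 CPM at 0 h (-0.39, SE 0.0641, edgeR adjusted p = 0.000412). Tyr, the tyrosinase of melanin synthesis, had 353, 388 and 425 CPM at 9 h and 523, 488 and 467 CPM at 0 h (-0.34, SE 0.0817, adjusted p = 0.0122). Neither gene's mice overlapped between these times. Rab38, which sorts cargo to melanosomes, was lower at night than by day (-0.51, SE 0.101, adjusted p = 0.00433), and Pmel, the melanosome scaffold protein, varied over time (0.57, adjusted p = 0.00653) with 1840 and 1860 CPM in the mice 1 and 2 of 15 h. Mitf itself was not called in any comparison. Rod markers were lower at 9 h than at 0 h, as given above, and their part in the 9 h values of the pigment and lysosomal lists was not tested.

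Genes whose 8 time means over the 22 libraries ran most like those of Mtor were Washc4 (Pearson r 0.971), Lrp8 (0.962) and Sdcbp (0.951), of 11956 genes compared. For Rragd they were Nxnl1 (0.987), which encodes a photoreceptor protein, Lingo3 (0.969) and Usp46 (0.968). Over these 8 points, 46 genes exceeded 0.9 with Mtor and 72 with Rragd. Among the 10 genes, the time means of Mtor and Rragd had a correlation of 0.677, and those of Rragd and Rragc -0.267. The value for Mtor and Tfeb, -0.929, was the lowest of all pairs among the 10, and Tfeb was called in no comparison. These values describe 8 means from the same libraries and carry no test.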

How the data were processed

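The authors deposited a table of raw counts, 1 column per mouse, with gene lengths and coordinates. Per the labels' protocols, the library kit was NEBNext Ultra RNA, whose reads carry no strand. STAR and HTSeq, with genome mm10, are listed in the submitters' processing notes, and their versions and settings are not given in the sources used here. Library depth was 14073440 to 17492470 counts, and all 24 sample columns were used. The labels give 3 mice per time as biological replicates.

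The deposited counts were tested with edgeR 4.0.16 in R 4.3.3 (filterByExpr with a minimum count of 10 on time groups, TMM, robust quasi-likelihood fits), which kept 18065 genes with 99.92% of counts. Adjusted p-values are from edgeR over all genes tested unless another tool is named. The time test was an F test of the differences from 0 h, and its effect is the range of the log2 time means. The 24 h component is the fitted log2 peak-to-trough ratio, with a jackknife SE over libraries. Night minus day and 9 h minus 0 h are contrasts in the model with a mean per time. A difference in CPM is a difference in TMM-scaled levels, and per-kilobase levels use the gene length in the file. DESeq2 1.42.0 and limma 3.58.1 (voom) were alternatives, with other scaling, no filter, a replicate block, a rod marker covariate and leaving out libraries or times. No pair of libraries agreed within sampling noise (lowest chi-square 5.85 per degree of freedom).

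Members, lists and markers were chosen with earlier results of these data known. Every one of the 10 genes was named. From the pathway lists, all genes called over 24 libraries were named, and of those called only over 22 at most 4 per list, lowest adjusted p first. The 3 most alike genes were named for each called member, among genes of at least 5 CPM. Exonic overlap was taken from GENCODE vM21, whose coordinates for the 10 genes equal those deposited. Samtor was not matched by symbol, and Tmem55b was matched as Pip4p1 through RefSeq synonyms.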

Additional observations from a re-analysis of the deposited data

How the results depend on the processing

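Of 195 genes called over time, 302 with a 24 h component, 251 between night and day and 135 between 9 h and 0 h, the counts with DESeq2 were 1930, 763, 651 and 359, and over the 22 libraries 2870, 1126, 852 and 1489. Without the filter on low counts 143 genes were called between night and day and 61 between 9 h and 0 h. The rod marker covariate gave 561 genes with a 24 h component and 6 between 9 h and 0 h, and without the time 0 h 138 had a 24 h component. Leaving out each library in turn gave 118 to 1215 genes over time, 203 to 789 with a 24 h component, 123 to 1172 between night and day and 23 to 569 between 9 h and 0 h. The lowest counts came without 0 h mouse 2 for time and without 0 h mouse 1 for 9 h against 0 h, and the highest of both without 15 h mouse 3. A further pair of settings was chosen after seeing the data. The replicate block in the 22 libraries called 2660, 1022, 793 and 1428 genes in that order, and the rod marker covariate in the 22 libraries 2257, 831, 700 and 229.

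The median correlation of deviations was 0.016 over 84 pairs of libraries with the same mouse number and -0.0055 over the others. Same-number values ran from -0.32 to 0.53, and 17 exceeded 0.1. The medians therefore do not decide whether mouse numbers pair any samples. With the replicate block over 24 libraries 87 genes were called between 9 h and 0 h, Mtor had an adjusted p of 0.064 over time and 0.03 between 9 h and 0 h, and Rragd 0.0518 between 9 h and 0 h. Without the filter on low counts Mtor had 0.113 over time and 0.0801 between 9 h and 0 h, and Rragd 0.132 between 9 h and 0 h. Over all alternatives, the time call of Mtor held in 14 of 33, its 9 h call in 26 of 33, and for Rragd the 24 h call held in 27 of 35 and the 9 h call in 9 of 33.

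Uncalled log2 differences changed sign as follows. Night over day, Rragd was -0.0042 without the filter, -0.022 with the rod marker covariate and -0.043 to 0.0726 with 1 library left out. Over 22 libraries, with the block there and with the rod covariate there, Tfe3 was 0.0281, 0.0202 and 0.0446, Rptor -0.017, -0.0128 and -0.0126, and Fnip1 0.0154, 0.0269 and 0.0266 night over day. At 9 h over 0 h with the rod marker covariate, Tfe3 was -0.0381, Rptor 0.0376 and Flcn -0.0955. With 1 library left out, night over day Tfe3 ran from -0.108 to 0.026, Tfec from -0.226 to 0.0083 and Fnip1 from -0.188 to 0.0535, and 9 h over 0 h Mitf from -0.158 to 0.053 and Rragc from -0.0264 to 0.0848. The causes were not tested. The 9 h over 0 h fold changes of Mtor and Rragd kept their sign in every alternative. The range over time and the 24 h span cannot be negative, so their sign is no check. Tfec, at 0.457 to 1.8 CPM, is limited by depth.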
